A study of Homo sapiens with 3 samples.

Results

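The amino acid transporters described here are 8 genes of solute carrier families, found by symbol among the 33538 features of the count matrices: SLC7A2, SLC7A5, SLC7A8, SLC3A2, SLC38A1, SLC38A2, SLC38A4 and SLC38A5. All 8 had a row, and 7 of the 8 had enough counts to be tested between cell classes; SLC38A5 did not. The RNA came from SC-alpha clusters, islet-like aggregates differentiated by a published protocol from the established human embryonic stem cell line HUES8. The series holds 1 group of 3 replicate libraries of single cells (10x Genomics 3' v3), with no second treatment or genotype, so each comparison lies between classes of cells. The labels do not say whether the replicates are separate differentiations. The p-values measure only how differences between classes vary over these 3 libraries, or over those that enter a test, with each library's own level taken out. HUES8 is a single line, so no difference between donors is covered.

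Cells were sorted by their own transcripts. Barcodes were kept if they showed 1000 or more genes and drew no more than 20% of their UMIs (unique molecular identifiers, which count captured RNA molecules) from mitochondrial genes, 1160, 1027 and 1466 in replicates 1, 2 and 3. Glucagon cells had at least 5% of their UMIs from GCG, the glucagon gene, and met none of the other gates. They numbered 828, 811 and 908. TPH1 cells had at least 3 UMIs of TPH1, the first enzyme of serotonin synthesis and a mark of enterochromaffin cells, and numbered 36, 20 and 107. INS cells had at least 1% of UMIs from INS, the insulin gene (26, 59 and 7 cells), and collagen cells had at least 10 UMIs of COL1A1, COL1A2 and COL3A1 together (9, 11 and 98 cells). A class entered the tests in a library only with at least 10 cells, so the INS cells of replicate 3 and the collagen cells of replicate 1 were left out of every test unless stated, although their values are given.

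Alpha cells answer amino acids with glucagon secretion, and glucagon in turn drives amino acid breakdown in the liver. Amino acids enter through carriers with different substrates. SLC7A2 carries the basic amino acids arginine, lysine and ornithine without sodium. SLC7A5 and SLC7A8 are light chains that exchange large neutral amino acids, and each reaches the cell surface only when bound to the heavy chain SLC3A2. SLC38A1, SLC38A2 and SLC38A4 take up small neutral amino acids such as alanine and glutamine together with sodium (system A). SLC38A5 carries glutamine, and in mice its level in alpha cells rises when glucagon signalling is blocked.

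The gates held the cells their markers name only in part. In glucagon cells 8 of 9 alpha markers reached 20 CPM (UMIs of a gene per 1e6 UMIs of its class and library), with a summed level of 77463 to 79888 CPM over the libraries. Of 7 enterochromaffin markers, 5 reached that level in TPH1 cells, against 3 in glucagon cells and 3 in INS cells. TPH1 cells had 7 of 9 alpha markers at that level, summed to 21415 to 29555 CPM. They also had 6 of 8 beta markers (460 to 763 CPM in sum) and 5 of 5 hepatic markers at that level. INS cells carried 8 of 9 alpha markers, 3 of 8 beta markers and up to 46906 CPM of delta markers, and 72 of the 92 also had at least 5% GCG, so they are called by their gate and not beta cells. Collagen cells had 9 of 9 mesenchyme markers and 4 of 4 proliferation markers, and the proliferation list, at 1.42 to 23.4 CPM in glucagon cells, summed to 568 to 1340 CPM in them. GCG itself averaged 148158 CPM in glucagon cells, 17921 in TPH1 cells, 104641 in INS cells and 903 in collagen cells. The deposited matrices held 30139788 to 31122791 UMIs each, and no kept barcode was shared between libraries. Median UMIs per cell were 16438, 21781 and 10482 in glucagon cells of replicates 1 to 3, against 11764, 14185 and 8075 in TPH1 cells. The part of depth, of these other markers and of RNA shared between droplets in the results was not tested, except where values for cells thinned to equal depth are given.

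**Figure D1:**
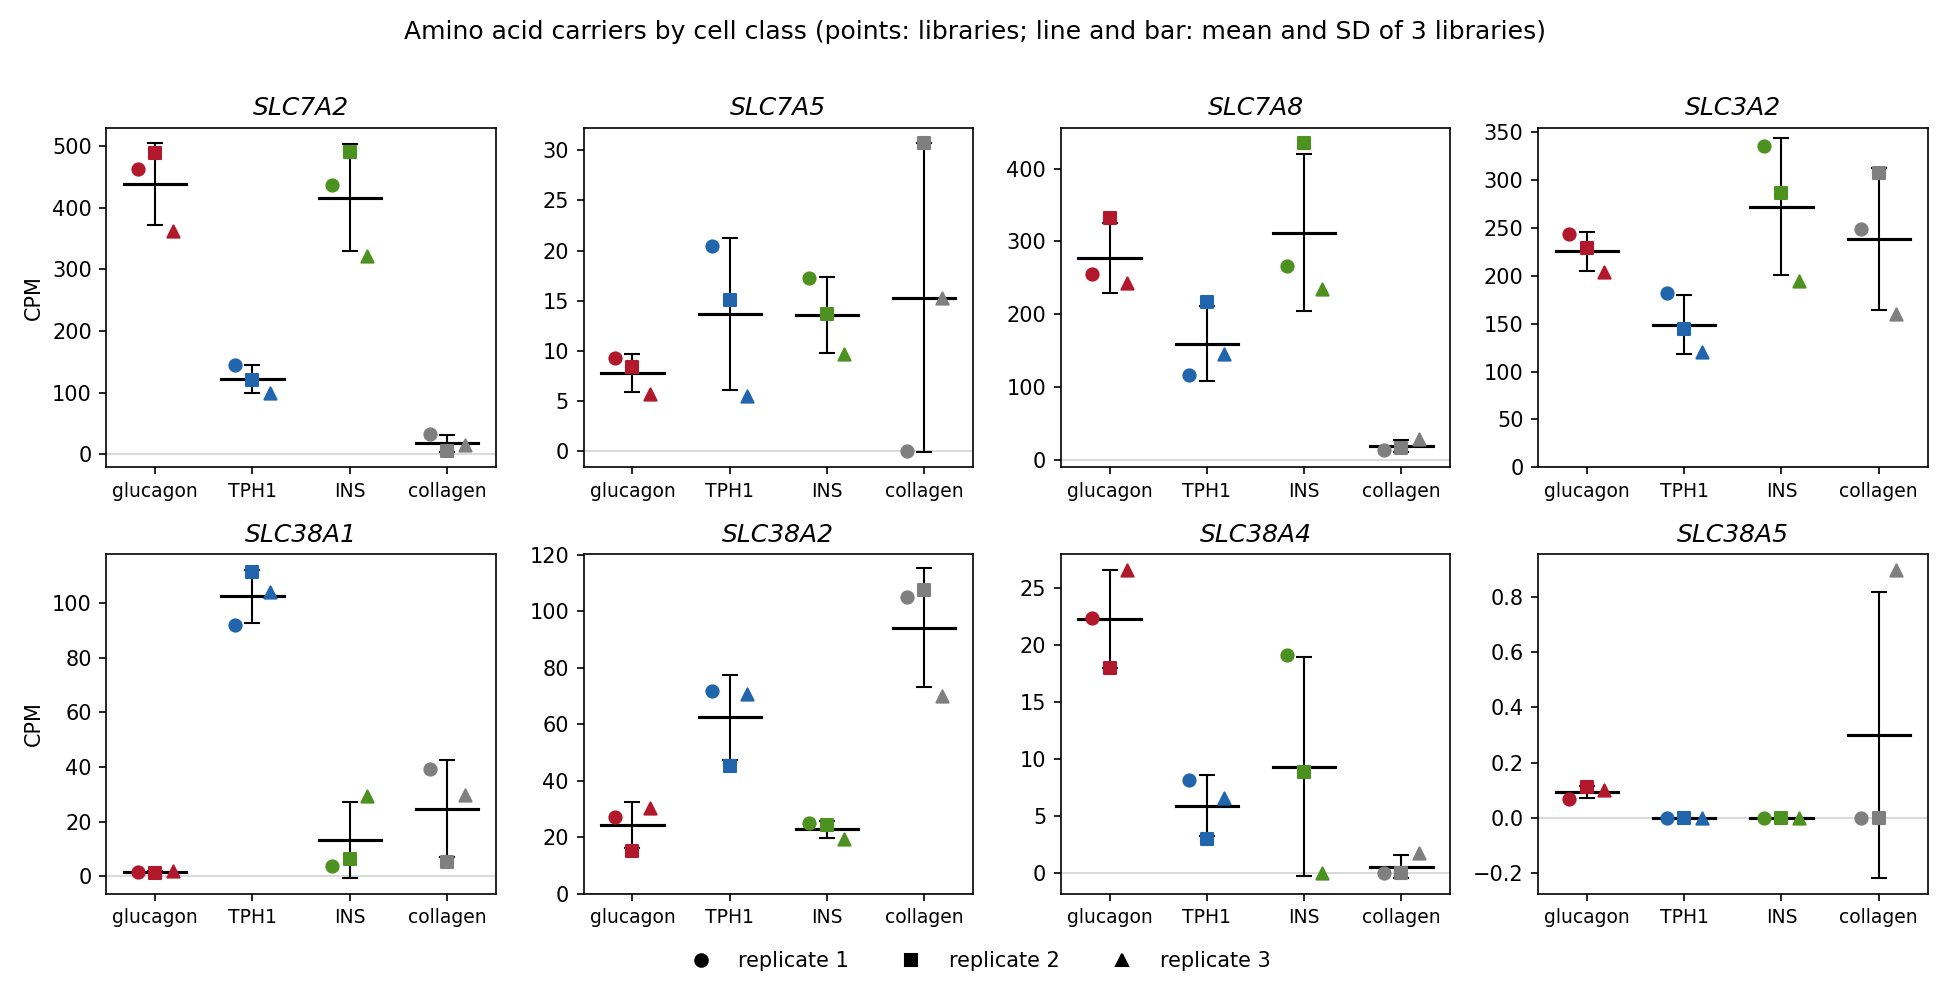
CPM of each carrier in glucagon, TPH1, INS and collagen cells, 1 panel per gene with its own axis. Points are the 3 libraries, the line is their mean and the bar their SD. SLC7A2 lay between 363 and 489 CPM in glucagon cells, against 99.6 to 145 CPM in TPH1 cells, and SLC38A1 lay between 1.01 and 2.00 CPM in glucagon cells, against 92.1 to 111 CPM in TPH1 cells.

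Glucagon cells had more SLC7A2, SLC7A8, SLC3A2 and SLC38A4 and less SLC38A1 and SLC38A2 than TPH1 cells. Of the 7 carriers tested, 4 were higher, 2 lower and 1, SLC7A5, did not pass (edgeR quasi-likelihood test on summed counts with the library as block, Benjamini-Hochberg adjusted p under 0.05 over 11015 genes). Of all genes tested, 17.7% passed in this comparison, 11% higher and 6.65% lower. Against collagen cells 3 of 7 carriers were higher and 3 lower, and SLC3A2 did not pass; there 53.3% of all genes passed, 27.3% higher and 26% lower, and the counts are read against these shares. Against INS cells 0 of 7 passed, where 0.154% of genes did. The median log2 fold change of the 7 carriers was 1.16 against TPH1 cells, -0.22 against INS cells and 0.15 against collagen cells, while that of all genes lay between 0.08 and 0.09. The members differ in direction among themselves, so these medians describe no common change. Fitted changes are relative to the typical gene: on plain CPM the median gene was shifted by -0.40 on the log2 scale in glucagon cells relative to TPH1 cells, and within 0.1 of 0 against the other classes. All comparisons of glucagon cells share the same glucagon sums.

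**Figure D2:**
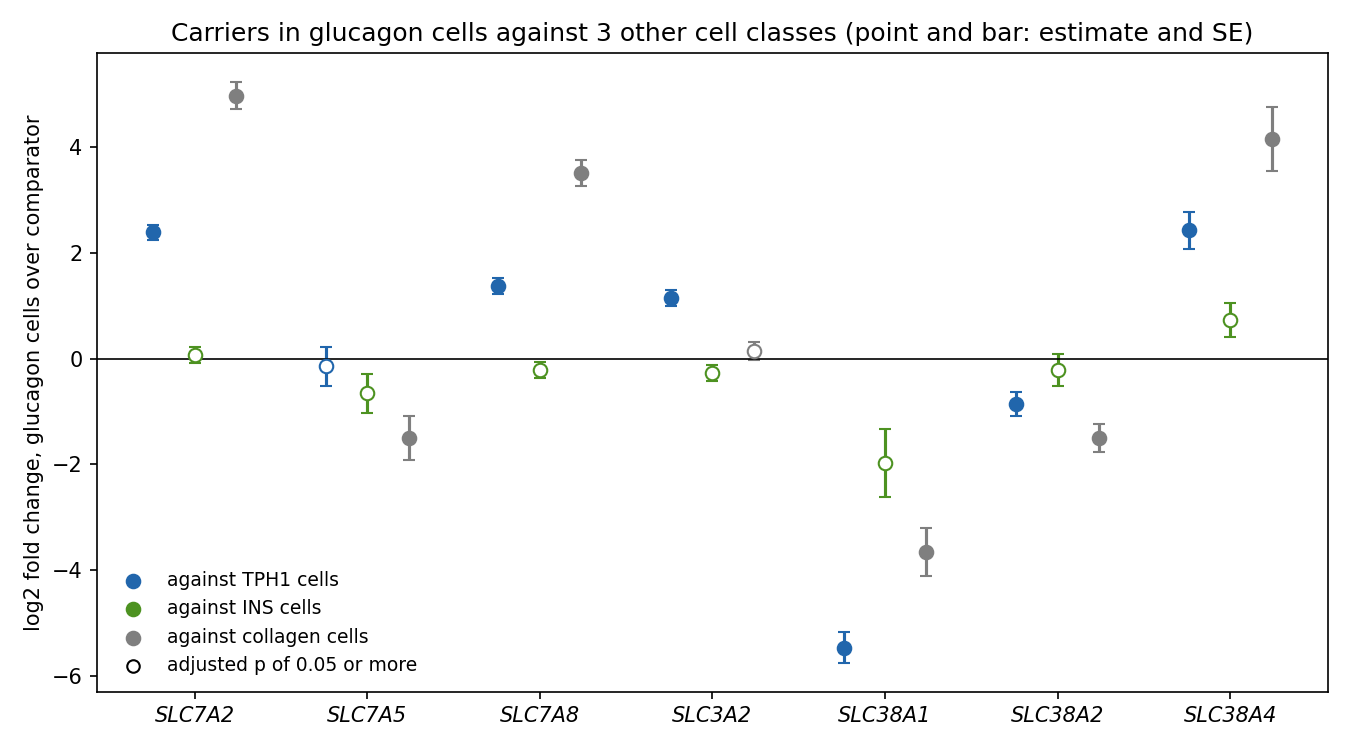
Log2 fold change of 7 carriers in glucagon cells over TPH1, INS and collagen cells, with its SE, from the fit over all class sums. Filled points passed an adjusted p of 0.05 and open points did not. SLC38A1 stood at -5.46 against TPH1 cells and SLC7A2 at 4.98 against collagen cells, while none of the points against INS cells is filled.

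SLC7A2, the basic amino acid carrier (chromosome 8), had 464, 489 and 363 CPM in glucagon cells of replicates 1, 2 and 3, against 145, 120.3 and 99.6 CPM in TPH1 cells. Each glucagon value exceeded every TPH1 value, as the 3 libraries do for 49.9% of all genes in one direction or the other. The log2 fold change was 2.39 ± 0.15 (SE, n = 3 and 3; edgeR adjusted p = 1.58e-10), and it was higher in 3 of 3 libraries. In replicate 1, 1 TPH1 cell held 33.8% of the class's 71 UMIs. With TPH1 cells limited to those under 5% GCG the change was 2.76 ± 0.17. In INS cells SLC7A2 had 437, 491 and 322 CPM, and the groups overlapped (0.07 ± 0.14, edgeR adjusted p = 1). Collagen cells had 5, 1 and 17 UMIs, or 32.8, 5.12 and 15.3 CPM, all below every glucagon value, as 60.4% of all genes lie wholly to one side there. The change against them was 4.98 ± 0.26 (edgeR adjusted p = 2.3e-12). Collagen cells had 0.61% of the GCG level of glucagon cells and 4.04% of their SLC7A2 level. GCG is the gene that sets the glucagon gate, so these shares cannot be set against each other. The part of RNA shared between droplets in them was not tested.

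At equal depth, detection of SLC7A2 in single cells ran in the order of its mean levels. After thinning every cell to 5000 UMIs, which left out 172 glucagon and 21 TPH1 cells below that depth, 86.3% ± 3.92 of glucagon cells had a UMI of SLC7A2 (SD, n = 3), against 42.6% ± 12.3 of TPH1 cells, 83.5% ± 6.72 of INS cells and 6.30% ± 5.70 of collagen cells. Without thinning the shares were 94.5% ± 2.48, 57.2% ± 17.0, 95.9% ± 4.24 and 18.2% ± 13.2 in the same classes. The gene was spread over the glucagon cells: the 5% of cells with the most UMIs held 13.3 to 14.6% of its UMIs.

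**Figure D3:**
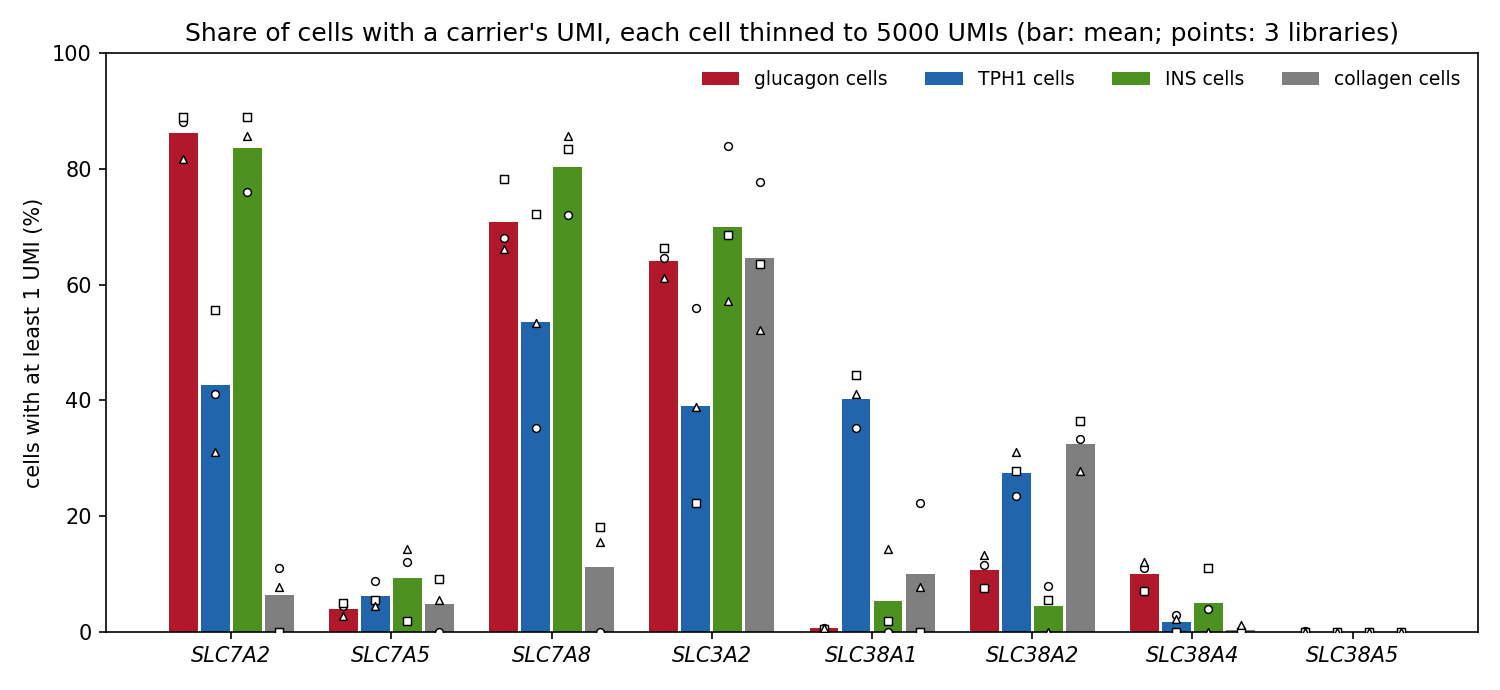
Share of cells with at least 1 UMI of each carrier after every cell was thinned to 5000 UMIs, in percent. Bars are means over 3 libraries and points the libraries, in the order glucagon, TPH1, INS and collagen cells. SLC7A2 was found in 86.3% of glucagon cells and 42.6% of TPH1 cells, and SLC38A1 in 0.67% of glucagon cells and 40.3% of TPH1 cells.

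Of the carriers of large neutral amino acids, the light chain SLC7A8 (chromosome 14, 23125295 to 23183674, minus strand, GRCh38) was higher in glucagon cells than in TPH1 and collagen cells, while SLC7A5 passed only as lower than in collagen cells. SLC7A8 had 256, 332 and 243 CPM in glucagon cells, against 117, 217 and 145 CPM in TPH1 cells. The lowest glucagon library lay above the highest TPH1 library, and the log2 fold change was 1.37 ± 0.15 (edgeR adjusted p = 6.11e-07). In INS cells it had 267, 435 and 234 CPM, overlapping glucagon cells (-0.22 ± 0.15, edgeR adjusted p = 0.95). Collagen cells held 13.1, 15.4 and 28.7 CPM (change 3.51 ± 0.24, edgeR adjusted p = 1.96e-10). At equal depth 70.8% ± 6.46 of glucagon cells had a UMI of SLC7A8, against 53.6% ± 18.5 of TPH1 cells and 11.2% ± 9.83 of collagen cells.

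SLC7A5 (chromosome 16, 87830023 to 87869488, minus strand) is the other light chain. It had 9.28, 8.46 and 5.70 CPM in glucagon cells, against 20.5, 15.04 and 5.53 CPM in TPH1 cells. The ranges overlap, and the change did not pass (-0.14 ± 0.37, edgeR adjusted p = 0.869). INS cells had 17.3, 13.7 and 9.75 CPM (change -0.65 ± 0.37, edgeR adjusted p = 0.923). In collagen cells it had 0, 30.7 and 15.3 CPM, where the 0 of replicate 1 is of a library left out of the test and allows up to 19.7 CPM. SLC7A5 passed as lower in glucagon cells than in collagen cells (-1.51 ± 0.42, edgeR adjusted p = 0.00459), but not with sums of at least 5 cells, which add that library and the INS cells of replicate 3 (-1.03, adjusted p = 0.0594), nor without replicate 3 (-1.63, adjusted p = 0.115). SLC7A5 had few UMIs, and in glucagon cells of replicate 1 the 5% of cells with the most UMIs held 52.6% of them. Where most cells have no UMI of a gene, that share is high however the UMIs fall. It is therefore no measure of concentration.

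SLC3A2 (chromosome 11, 62856102 to 62888875, plus strand), the heavy chain that both light chains need, had 243, 229.7 and 204 CPM in glucagon cells. TPH1 cells had 182, 144 and 121 CPM, below every glucagon library, with a change of 1.16 ± 0.15 (edgeR adjusted p = 6.74e-06). Unlike SLC7A8 it was not scarce in collagen cells, which had 249.5, 307 and 159.8 CPM, on both sides of the glucagon values (0.15 ± 0.17, edgeR adjusted p = 0.506). Without replicate 2 that change passed (0.47, adjusted p = 0.0142) and without replicate 3 it was -0.19. INS cells had 336, 286 and 195 CPM (-0.26 ± 0.16, edgeR adjusted p = 0.928). When only the sums of glucagon and INS cells were fitted, SLC3A2 passed as lower in glucagon cells (-0.38, adjusted p = 0.0028).

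The light chains, the heavy chain and SLC7A2 were also counted in the same cells. At 5000 UMIs a cell, SLC3A2 was found in 66.4%, 69.3% and 61.8% of the glucagon cells with a UMI of SLC7A8, against 60.9%, 56.0% and 59.9% of those without. For SLC7A5 there were only 35, 36 and 23 cells with a UMI, of which 71.4%, 55.6% and 43.5% also had SLC3A2, against 64.3%, 67.0% and 61.7% of cells without. The order differs between libraries for SLC7A5. SLC7A8 was found in 68.0%, 78.7% and 66.5% of glucagon cells with SLC7A2, against 68.1%, 74.1% and 64.7% of those without. Thinning removes most differences in depth but not those in RNA content, and these shares are a description with no test.

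The system A genes SLC38A1, SLC38A2 and SLC38A4 lie next to each other on chromosome 12, all on the minus strand, in that order: SLC38A1 at 46183063 to 46270017, SLC38A2 at 46358189 to 46372867 and SLC38A4 at 46764761 to 46832408 (GRCh38). Gaps of 88.2 kb and 392 kb separate them. Their RNA did not all move together. SLC38A1 and SLC38A2 were lower in glucagon cells than in TPH1 and collagen cells, and SLC38A4 was higher. The sequence around a start site of each is shown. The window of SLC38A2 crosses the gene's 5′ end, while those of SLC38A1 and SLC38A4 lie wholly inside the spans given above. Each line gives 250 bases before to 50 after a RefSeq start site (GRCh38.p14), written 5′ to 3′ on the gene's strand. SLC38A1 has 2 such windows, and the one with a match is shown. Capitals mark matches to TGATGNAAN, the element bound by C/EBP and ATF4 dimers in the amino acid response, on either strand.
SLC38A1, chr12:46266467-46266766: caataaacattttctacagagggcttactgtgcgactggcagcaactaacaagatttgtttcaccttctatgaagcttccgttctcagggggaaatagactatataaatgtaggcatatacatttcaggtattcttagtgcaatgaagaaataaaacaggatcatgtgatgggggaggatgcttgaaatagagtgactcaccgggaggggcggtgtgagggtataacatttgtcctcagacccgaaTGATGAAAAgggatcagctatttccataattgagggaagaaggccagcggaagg
SLC38A2, chr12:46372724-46373023: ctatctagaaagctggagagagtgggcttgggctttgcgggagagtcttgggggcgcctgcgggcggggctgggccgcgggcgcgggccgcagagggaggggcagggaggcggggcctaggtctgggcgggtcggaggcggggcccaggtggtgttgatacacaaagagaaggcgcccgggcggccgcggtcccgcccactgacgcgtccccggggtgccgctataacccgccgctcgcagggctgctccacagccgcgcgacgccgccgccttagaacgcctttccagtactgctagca
SLC38A4, chr12:46825948-46826247: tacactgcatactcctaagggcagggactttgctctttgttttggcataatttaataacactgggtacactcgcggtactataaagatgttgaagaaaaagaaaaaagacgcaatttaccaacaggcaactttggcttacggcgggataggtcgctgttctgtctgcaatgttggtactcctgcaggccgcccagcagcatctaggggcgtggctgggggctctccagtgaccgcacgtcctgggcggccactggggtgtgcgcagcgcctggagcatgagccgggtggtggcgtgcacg
The SLC38A1 window holds TGATGAAAA, which begins 4 bases before the start site, and the other two windows hold none. Over 13 windows of the 7 members other than SLC7A2, these 3 included, 2 had a match, the SLC38A1 window shown and 1 of SLC3A2, and 3.61% of 35116 promoter windows of the same length had one. The cyclic AMP response element TGACGTCA (1.85% of windows) and the FOXA motif TGTTTAC (3.42%) matched 0 of the 13. A match is a description of letters and not of binding.

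SLC38A1 had the largest change of the 7 tested carriers against TPH1 cells. It had 25, 18 and 20 UMIs in all glucagon cells of replicates 1, 2 and 3, or 1.69, 1.01 and 2.00 CPM, against 45, 37 and 94 UMIs in TPH1 cells, or 92.1, 111 and 104 CPM. No glucagon library came near a TPH1 library. The log2 fold change was -5.46 ± 0.29 (edgeR adjusted p = 2.19e-11; lower in 3 of 3 libraries). At equal depth 0.67% ± 0.11 of glucagon cells had a UMI, against 40.3% ± 4.63 of TPH1 cells, and TPH1 cells are the shallower class. TPH1 itself, which glucagon cells may carry only at under 3 UMIs, had 2.38 CPM in glucagon cells and 1351 CPM in TPH1 cells. The gates fix that gap in advance, so it is no measure for the gap of SLC38A1.

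INS cells had 2, 8 and 3 UMIs of SLC38A1, or 3.83, 6.45 and 29.2 CPM. Each lay above the glucagon value of its library, but the change did not pass (-1.98 ± 0.64, edgeR adjusted p = 0.522). Collagen cells had 39.4, 5.12 and 29.6 CPM, the middle value from 1 UMI. Against them SLC38A1 was lower in glucagon cells (-3.66 ± 0.46, edgeR adjusted p = 1.15e-06). The call ended without replicate 3, which holds 98 of the 118 collagen cells (-1.68, adjusted p = 0.57).

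SLC38A2, the carrier of this group that most cell types use and that rises when amino acids are scarce, had 27.1, 15.02 and 30.5 CPM in glucagon cells, against 71.6, 45.1 and 70.8 CPM in TPH1 cells. All glucagon libraries lay below all TPH1 libraries (-0.85 ± 0.22, edgeR adjusted p = 0.00824), but the call ended without replicate 1 (-0.84, adjusted p = 0.12). INS cells had 24.9, 24.2 and 19.5 CPM, within the glucagon range (-0.21 ± 0.31, edgeR adjusted p = 0.991). Collagen cells had 105, 107.5 and 70.0 CPM, above every glucagon library (-1.49 ± 0.27, edgeR adjusted p = 8.28e-05). An antisense transcript overlaps SLC38A2 in the annotation, away from its 3′ end.

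SLC38A4, best known from liver, ran the other way. It had 22.4, 18.0 and 26.6 CPM in glucagon cells, against 8.19, 3.01 and 6.64 CPM in TPH1 cells, where these rest on 4, 1 and 6 UMIs. The glucagon libraries were all higher, and the change was 2.43 ± 0.34 (edgeR adjusted p = 2.39e-05). INS cells had 10, 11 and 0 UMIs, or 19.2, 8.88 and 0 CPM, the 0 allowing up to 29.2 CPM in that library (0.73 ± 0.32, edgeR adjusted p = 0.851). Collagen cells had 2 UMIs in all, so the pooled ratio of 15.7 has an exact 95% interval of 4.34 to 130.1 that covers counting error only. The fitted change passed there (edgeR adjusted p = 7.28e-06). The non-coding gene AC008014.1 lies over the 3′ end of SLC38A4 on the other strand. The 5 hepatic markers summed to 331 to 850 CPM in glucagon cells, against 168 to 332 CPM in TPH1 cells, 410 to 561 CPM in INS cells and 0 to 6.28 CPM in collagen cells. Their members differed in direction: ALB had a mean of 12.2 CPM in glucagon cells and 24.7 CPM in TPH1 cells, and AMBP 4.22 CPM in glucagon cells and 24.0 CPM in TPH1 cells, while AFP, APOA1 and APOC3 had the higher mean in glucagon cells. At 20 CPM or more stood 3 of 5 in glucagon cells, 5 of 5 in TPH1 cells, 3 of 5 in INS cells and 0 of 5 in collagen cells, and their part in the SLC38A4 result was not tested.

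SLC38A5 (chromosome X, 48458537 to 48470256, minus strand), the glutamine carrier tied to alpha cell growth in mice, was nearly absent from the counts. It had 1, 2 and 1 UMIs in glucagon cells, or 0.0678, 0.112 and 0.100 CPM, in 4 cells in all. Collagen cells of replicate 3 had 1 UMI, and TPH1 and INS cells had 0, which allows up to 3.32 to 9.03 CPM in TPH1 cells and 2.42 to 29.2 CPM in INS cells. No fold is given, since both sides lie at or under 3 counts a library.

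The other 3 pairings ordered the classes. Over 7 tested carriers and 3 contrasts, 15 of 21 tests passed: 5 of 7 in TPH1 over INS cells (9.44% of all genes passed), 5 of 7 in TPH1 over collagen cells (47.6%) and 5 of 7 in INS over collagen cells (40.6%). The INS sums come from replicates 1 and 2 and the collagen sums from replicates 2 and 3, so only replicate 2 holds both of those classes. SLC7A2 and SLC7A8 ran in the order glucagon and INS cells, then TPH1 cells, then collagen cells, with each step but the first passing: SLC7A2 changed by -2.32 ± 0.17 in TPH1 relative to INS cells and by 2.58 ± 0.30 in TPH1 relative to collagen cells, and SLC7A8 by -1.59 ± 0.18 and 2.14 ± 0.27. For SLC3A2, TPH1 cells stood below both INS cells (-1.42 ± 0.18) and collagen cells (-1.01 ± 0.20), while INS and collagen cells did not differ past the threshold (0.41 ± 0.21, edgeR adjusted p = 0.121). In 5 of 14 alternatives INS cells passed as higher than collagen cells (0.46 to 0.87, adjusted p from 0.00178 to 0.046). SLC38A1 was highest in TPH1 cells, above INS cells by 3.49 ± 0.47 and above collagen cells by 1.81 ± 0.38. SLC38A2 did not differ past the threshold between TPH1 and INS cells (0.64 ± 0.34, edgeR adjusted p = 0.304) or TPH1 and collagen cells (-0.64 ± 0.29, edgeR adjusted p = 0.0771). The first passed at a 30% mitochondrial limit (1.05, edgeR adjusted p = 0.013). Without replicate 3, which leaves 1 collagen sum, the second stood at -1.57. On plain CPM, SLC38A2 was higher in TPH1 than in INS cells in 3 of 3 libraries (62.5 ± 15.1 and 22.9 ± 2.95 CPM, SD). That count includes the INS cells of replicate 3, left out of the test. The fitted changes are again relative to the typical gene. On plain CPM the median gene was shifted by 0.47 in TPH1 relative to INS cells and by 0.45 relative to collagen cells. Among the 15 calls, SLC38A4 in INS relative to collagen cells (3.43 ± 0.79, edgeR adjusted p = 0.00172) rests on 21 and 2 UMIs. It was higher in INS cells in 2 of 3 libraries. A further 3 calls rest on low counts and often ended. SLC38A4 in TPH1 relative to INS cells (-1.70 ± 0.52, edgeR adjusted p = 0.0429) did not pass in 9 of 13 alternatives, without replicate 1 or 3 among them. SLC7A5 in TPH1 relative to collagen cells (-1.36 ± 0.49, edgeR adjusted p = 0.0278) did not pass in 9 of 14, without replicate 2 or 3 among them. SLC38A1 in INS relative to collagen cells (-1.68 ± 0.63, edgeR adjusted p = 0.0372) did not pass in 7 of 14, without replicate 1 or 3 among them. When comparator cells had to be under 5% GCG, which leaves 13 INS cells of 1 library, 8 of 21 passed.

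Among cells that met no TPH1, INS or collagen gate, the carriers were followed along the share of GCG, with GCG left out of the total so that its own size does not dilute the rest. SLC7A2 had 198, 244 and 99.9 CPM in cells with under 1% GCG, 467, 434 and 366 CPM at 1 to 5%, and 567, 645 and 448 CPM above 20%. SLC38A1 ran down in each library, at 54.4, 48.9 and 55.1 CPM under 1%, 12.5, 5.35 and 9.84 CPM at 1 to 5%, and 0.726, 0.565 and 0 CPM above 20%. The largest step of both lay below the 5% that defines a glucagon cell. SLC38A4 had 9.67, 9.50 and 5.45 CPM under 1% and 26.1, 20.4 and 28.4 CPM above 20%. The bins hold 49 to 407 cells each.

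**Figure D4:**
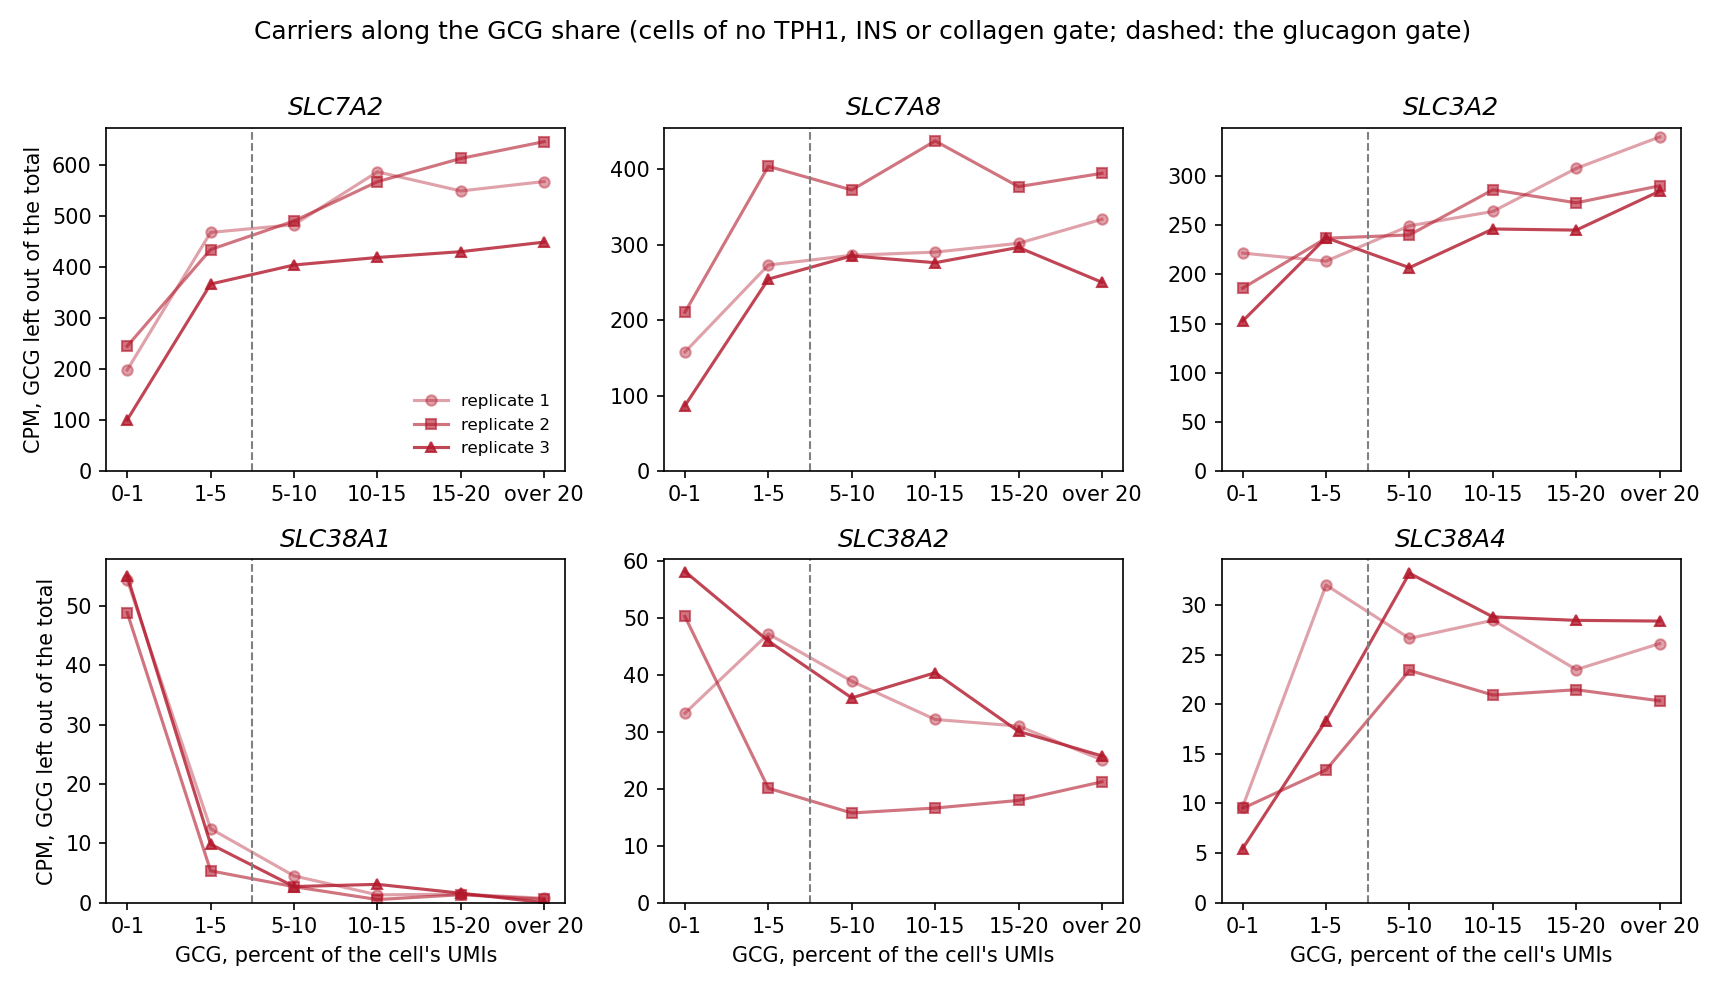
CPM of 6 carriers, with GCG left out of the total, in cells grouped by the percent of their UMIs from GCG, 1 line per library. The dashed line marks 5%, above which cells count as glucagon cells. SLC7A2 lies at 448 to 645 CPM in the highest group and at 99.9 to 244 CPM in the lowest, and SLC38A1 stands at 48.9 to 55.1 CPM there and at 0 to 0.726 CPM in the highest.

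Within glucagon cells, those with the highest GCG share (GCG-high cells) had more SLC3A2 and SLC7A2 than those with the lowest (GCG-low cells). The cells of each library were ranked by GCG share and cut into 3 equal groups, and the outer groups of 276, 270 and 302 cells a side were compared with GCG left out of the counts. This comparison was chosen after the data were seen. SLC3A2 had 329.7, 291 and 258 CPM in GCG-high cells, against 251, 248 and 202 CPM in GCG-low cells, and it was higher in 3 of 3 libraries (0.41 ± 0.059, edgeR adjusted p = 4.88e-06). SLC7A2 had 566, 638 and 435 CPM in GCG-high cells, against 501, 499.5 and 398 CPM in GCG-low cells (0.31 ± 0.057, edgeR adjusted p = 0.000363). These 2 of 6 tested carriers passed, where 2.37% of 12304 genes did. SLC7A8 (0.17 ± 0.058, edgeR adjusted p = 0.112; without replicate 2 it passed, 0.23, adjusted p = 0.0329), SLC7A5 (-0.35 ± 0.20, edgeR adjusted p = 0.465), SLC38A2 and SLC38A4 did not pass. Median UMIs per cell were 19584, 25371 and 12283 in GCG-high cells, against 14682, 17871 and 9243 in GCG-low cells. After thinning to equal depth the same number of carriers, 2, passed. The calls need the library as block: without it 0 of 12304 genes passed, and 559 had an unadjusted p under 0.05. With stricter gates SLC7A2 did not pass (0.16, adjusted p = 0.113).

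The 733 kept cells that met no gate add a description of SLC38A1 outside TPH1 cells, in groups chosen after the data were seen that may overlap. Pooled over the libraries, SLC38A1 had 77.7 CPM in 56 cells with 1 or 2 UMIs of TPH1, 63.3 CPM in 36 cells with at least 3 UMIs of the proliferation genes MKI67 and TOP2A, and 42.6 CPM in 62 cells with at least 3 UMIs of FABP7, a glial marker. The 390 cells with 1 to 5% GCG had 9.40 CPM and the 343 cells with less had 53.6 CPM. Pooled, each of these groups lay above the 1.01 to 2.00 CPM of the glucagon cells. In replicate 2 alone, the 4 proliferation cells and the 2 FABP7 cells had 0 UMIs. Further groups also held SLC38A1, at 78.3 CPM in 12 cells with at least 10 UMIs of ALB. It had 41.6 CPM in 26 cells with at least 1% of UMIs from the delta marker SST. The 218 cells with under 1% GCG in none of the TPH1, proliferation, FABP7, ALB and SST groups had 44.4 CPM. SLC7A2 had 401 CPM in the cells with 1 to 5% GCG, 166 CPM in those with less and 2.08 CPM, from 2 UMIs, in the FABP7 cells.

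Genes whose levels ran most like those of a member were sought among 4241 genes over the 12 class sums of the libraries, by Pearson's r of log2(CPM + 10) centred within each library. The 12 sums share libraries and cells' depth, so r is a description. SLC7A2 ran most like GAD2, an enzyme that makes GABA (r = 0.99; 199 CPM in glucagon cells, 59.1 in TPH1, 230.4 in INS and 3.39 in collagen cells), and FXYD2, a subunit of the sodium pump (r = 0.98). SLC7A8 ran most like RPS6KA3, a growth factor kinase, and PLD3 (both r = 0.99). The nearest to SLC38A1 were VCP (r = 0.98) and TBC1D1 (r = 0.97), to SLC38A2 MPDZ and SON (0.98 and 0.97), and to SLC38A4 the angiotensin precursor AGT (0.96) and ARRDC4 (0.95). SLC3A2 ran most like ZNF593 (0.90) and the endoplasmic reticulum peroxidase PRDX4 (0.87), and SLC7A5 most like ORMDL2 (0.90) and CISD2 (0.87). In TPH1, INS and collagen cells SLC7A5 rests on 20, 27 and 23 UMIs and SLC38A4 on 11, 21 and 2, so single UMIs move these r values. ORMDL2 had 57.4 CPM in TPH1 and 47.9 CPM in collagen cells, while the mean of SLC7A5 was highest in collagen cells. Between members r was 0.97 for SLC7A2 with SLC7A8 and -0.93 for SLC7A2 with SLC38A2. SLC3A2 stood at -0.01 with SLC7A8 and 0.12 with SLC7A5, the 2 light chains among the members.

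Of 34 other amino acid transporters, 22 were tested. Against TPH1 cells 2 were higher and 4 lower in glucagon cells (median log2 fold change -0.16, against 0.08 for all genes). Of all genes tested, 11% were higher and 6.65% lower there. The lower ones include SLC38A11 (2.92 ± 0.99 CPM in glucagon cells and 111 ± 79.9 CPM in TPH1 cells, SD, n = 3; change -4.65 ± 0.39), a relative of the system A carriers, SLC38A3, a glutamine carrier of system N (-2.85 ± 0.60), and SLC36A1, a proton-coupled carrier of small amino acids (-2.41 ± 0.71). SLC6A19, the neutral amino acid carrier of gut and kidney epithelium, was higher (45.3 ± 12.2 CPM in glucagon cells and 22.9 ± 1.02 CPM in TPH1 cells; 1.43 ± 0.21). Against INS cells 0 of 22 passed, where 0.154% of all genes did. Against collagen cells 10 were higher and 3 lower, where 27.3% of all genes were higher and 26% lower. There SLC1A5, a glutamine exchanger, had 3 UMIs in all glucagon cells and 62 in collagen cells (602-fold lower, exact 95% interval 197 to 3000.1), and SLC1A3, a glutamate carrier, had 2 UMIs in glucagon cells and 47 in collagen cells (685-fold lower, 179 to 5821). SLC43A1, a carrier of large neutral amino acids, had 1058 UMIs in glucagon cells and 0 in collagen cells, at least 12.1-fold higher with the 0 set at 3 counts over the class. SLC6A19 had 2023 UMIs in glucagon cells and 1 in collagen cells (69.4-fold, 12.4 to 2743).

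Of 21 genes of amino acid metabolism 19 were tested. Against TPH1 cells, where 11% of all genes were higher and 6.65% lower, 3 were higher and 0 lower. Among them PSPH, of serine synthesis, and GLUD1, which deaminates glutamate, changed by 0.95 ± 0.23 and 0.71 ± 0.20. Their plain CPM were nearer to each other (GLUD1 at 72.5 ± 15.9 in glucagon cells and 67.3 ± 21.2 in TPH1 cells), so these changes are relative to the typical gene. Against collagen cells 6 were higher and 6 lower, where 27.3% of all genes were higher and 26% lower. PSAT1 of serine synthesis stood at -3.98 ± 0.31 and CPS1, which starts the urea cycle, at -2.17 ± 0.87. BCAT1, which transaminates leucine, isoleucine and valine, had 5 UMIs in glucagon cells and 71 in collagen cells (414-fold lower, 169 to 1314).

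All 14 genes of the ATF4 amino acid response were tested. Against TPH1 cells 3 were higher and 1 lower in glucagon cells, where 11% of all genes were higher and 6.65% lower. These calls were the secreted STC2 at 1.24 ± 0.27, SESN2, a leucine sensor, at 0.60 ± 0.19, ATF4 itself at 0.41 ± 0.13 and the lipoprotein receptor VLDLR at -0.68 ± 0.15. On plain CPM, ATF4 had 163 ± 21.4 CPM in glucagon cells and 178 ± 9.64 CPM in TPH1 cells, and it was higher in 0 of 3 libraries. Its call as higher is thus relative to the typical gene. SESN2 had 43.3 ± 1.20 CPM in glucagon cells and 41.8 ± 13.3 CPM in TPH1 cells, and it was higher in 1 of 3 libraries. Its plain CPM was not higher by more than its spread. Against collagen cells 5 were higher and 3 lower, where 27.3% of all genes were higher and 26% lower. NUPR1, a stress regulator of chromatin, had 4 UMIs in glucagon cells and 467 in collagen cells (3403-fold lower, 1320.1 to 12541). In GCG-high cells CHAC1, which breaks down glutathione, was lower (11.9 ± 0.81 CPM, against 23.1 ± 6.06 CPM in GCG-low cells; -0.81 ± 0.15), as was SLC7A11, the cystine carrier that supplies glutathione synthesis (-0.65 ± 0.17).

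Of 19 genes by which amino acids reach the growth kinase complex mTORC1, 18 were found and 15 tested. Against TPH1 cells CASR, the calcium receptor that also senses amino acids, was lower in glucagon cells (34.2 ± 5.86 CPM in glucagon cells and 88.8 ± 28.3 CPM in TPH1 cells; -0.87 ± 0.16, edgeR adjusted p = 0.000494), and LAMTOR5, of the lysosomal Ragulator complex, passed as higher (0.41 ± 0.13) with plain CPM of 197 ± 22.9 in glucagon cells and 216 ± 11.1 in TPH1 cells. CASR had 0 UMIs in collagen cells, against which its 1467 UMIs in glucagon cells are at least 16.8-fold higher. Against collagen cells 4 of 15 were higher and 3 lower, where 27.3% of all genes were higher and 26% lower. LAMTOR3 stood at 1.19 ± 0.27, RRAGD, a Rag GTPase, at 1.14 ± 0.22 and SESN1 at 1.02 ± 0.34. Against INS cells 0 genes of these 3 further lists passed either. Between GCG-high and GCG-low cells 0 of 16 mTORC1 genes passed, where 2.37% of all genes did. Over all 11015 genes, 17 passed against INS cells by edgeR, 5 by DESeq2, and 608 had an unadjusted p under 0.05.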

How the data were processed

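Per the labels and file headers, the authors deposited raw UMI counts per gene and barcode for each library, made with Cell Ranger 4.0.0 against GRCh38 and not normalized. Neither the annotation release nor how cells were called is given in the sources used here. Of 9683 barcodes, 3653 passed the gene and mitochondrial limits; 7 barcodes occur in more than 1 library, 0 of them among those kept. Scrublet called 47 doublets (18, 11 and 18), which stayed in and were removed as an alternative. Counts were summed per library and class (glucagon 2547 cells, TPH1 163, INS 92, collagen 118). No cell met more than 1 of the TPH1, INS and collagen gates. All sums of at least 10 cells entered 1 edgeR 4.0.16 quasi-likelihood fit (R 4.3.3, TMM, filterByExpr) with library as a block, since sums of a library come from the same suspension, and p-values were adjusted over all genes. The SE is the log2 fold change over the square root of F. GCG-high and GCG-low cells were fitted separately. Alternatives were DESeq2 1.42.0, RLE factors, no low-count filter, each library left out, no block, other gates, thinning to 5000 UMIs, a 30% mitochondrial limit and GCG and TTR left out. The fit was tested on simulated data.

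Exact intervals reflect counting error alone, and a count of 0 allows up to 3. Levels of different genes are not compared, since capture differs between transcripts. Of the features, 33456 were found by identifier in GENCODE 29. Named genes are all 8 members, up to 4 genes per list and comparison, by size of change among those past the threshold, and the 2 genes most like each member. The members, lists and gates were chosen with earlier results of these data known. The values of 1 gene of the amino acid metabolism list are not reported here.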

Additional observations from a re-analysis of the deposited data

How the results depend on the processing

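Against TPH1 cells, the 6 carrier calls held under every alternative run except without replicate 1 (5 calls, SLC38A2 lost) and after thinning. In the thinned sums SLC38A4 was not among the 6 carriers tested, and the other 5 calls held. Over all genes, 1948 passed with 1216 higher and 732 lower. RLE factors gave 896 higher and 895 lower, DESeq2 1203 in all (583 and 620), thinning 1164, and leaving out 1 library 1035 to 2255. Without the block the carriers gave 6 calls. SLC7A5 turned to 0.027 with no low-count filter and ranged over -0.48 to 0.20 when 1 library was left out.

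Against INS cells 17 genes passed, but 5 by DESeq2, 110 with no filter, 6 with no replicate block, 177 when only the sums of both classes entered, 11 each with INS cells under 5% GCG, stricter gates or thinning, 10 with sums of at least 5 cells, and 2 to 118 with 1 library left out. The 0 carrier calls became 1, SLC3A2, with both classes only. SLC7A2 turned sign with RLE (-0.0031), DESeq2 (-0.014), no replicate block (-0.040) and GCG and TTR left out (-0.00064). SLC3A2 stood at 0.15 against INS cells under 5% GCG, and SLC38A2 at 0.016 without the block, 0.73 after thinning and -0.35 to 0.16 with 1 library left out.

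Against collagen cells 5871 genes passed, 3255 after thinning and 3136 to 5955 with 1 library left out, where SLC3A2 ranged over -0.19 to 0.47. SLC7A5 did not pass without the replicate block (-1.04, adjusted p = 0.0673), after thinning or at the 30% mitochondrial limit. Of the 15 calls between the other classes, 8 were left with comparator cells under 5% GCG, and 11 to 16 passed under the other alternatives. SLC38A4 in TPH1 relative to INS cells lost its call in 9 of 13 (adjusted p up to 0.786), SLC7A5 in TPH1 relative to collagen cells in 9 of 14 (up to 0.391) and SLC38A1 in INS relative to collagen cells in 7 of 14. SLC3A2 in INS relative to collagen cells gained one in 5 of 14. With comparator cells under 5% GCG, SLC38A2 (-0.54) and SLC7A5 (0.20) turned in TPH1 relative to INS cells and SLC3A2 (-0.065) in INS relative to collagen cells, and SLC38A1 ranged over -2.56 to 0.32 in INS relative to collagen cells with 1 library left out.

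Between GCG-high and GCG-low cells 291 genes passed, 90 by DESeq2, 116 after thinning, 0 without the block and 139 to 267 with 1 library left out. Carrier calls were 0 without the block and 1 with stricter gates, where SLC38A4 stood at 0.013, and 3 without replicate 2, with SLC7A8 added; SLC38A2 ranged over -0.33 to 0.082 with 1 library left out. The replicate number here is the library itself, so 1 suspension of cells gave both sums of a pair. The causes of these changes were not tested. With only both classes fitted, 4 of the 5 carriers tested passed in TPH1 relative to INS cells and 4 of 5 in TPH1 relative to collagen cells, and INS and collagen cells alone leave no residual degrees of freedom. Sums of at least 5 cells and all alternatives for GCG-high against GCG-low cells were chosen after seeing the data. Depth limits the INS and collagen classes, where single UMIs of the low carriers move a value.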
